A study of Mus musculus with 18 samples.

Results

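The 35 genes described here are mouse genes that interferons induce, and they were chosen by name, not by their values in this series. Of these, 33 had at least 1 probe set that the platform annotation assigns to that gene symbol alone, and the probe set with the highest mean signal stood for the gene. Isg15, whose probe set is listed with a further symbol, and Ifi44, which was matched to no probe set, were not analysed here. A filter on low values kept genes with a mean log2(signal + 16) of at least 7.10, a signal of 121, and 29 of the 33 genes passed it, among 12870 genes in all. Ifit2 (mean log2 signal 6.90), Cxcl9 (6.98), Mx1 (6.70) and Mx2 (5.33) lay under it.

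The series was made to find transcripts of mouse distal colon that follow the time of day. Total RNA of the colon wall just above the anus was hybridized to Affymetrix arrays that cover the mouse genome, with 3 arrays, named a, b and c, at each of 6 collection times. All mice had free access to food and had lived for 2 weeks in a cycle of 12 h light and 12 h dark, in which light began at clock hour 7 and ended at 19. The groups 8am, 12pm and 4pm were collected in the light, 1, 5 and 9 h after lights on, and the groups 8pm, 12am and 4am in the dark, at 13, 17 and 21 h. The labels used here name no genotype, strain, age or sex, and no treatment. They leave unsaid if arrays sharing a time are of different mice or of pooled RNA, and each p-value is then set against the spread among arrays, which may be technical. The tissue is the resected colon and not a sorted cell type, and in such bulk RNA fewer cells of a type and less RNA per cell cannot be told apart. Every marker fixed for colon epithelium (9 of 9) and for smooth muscle (5 of 5) passed the filter, as did all 6 for macrophages and monocytes, against 1 of 6 for T cells, 1 of 4 for natural killer cells and 0 of 3 for neutrophils.

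Interferons are secreted proteins that cells release on sensing foreign nucleic acids or on immune activation. Type I interferons such as interferon beta signal through the receptor Ifnar1 and Ifnar2 to a complex that holds Stat2 and Irf9 and binds the interferon-stimulated response element (ISRE) in target promoters. Interferon gamma signals through Ifngr1 and Ifngr2 to genes with a gamma-activated sequence (GAS), and Irf1 carries that signal on to ISRE-like sites. In the gut, interferon genes are kept at a basal level in part by the microbiota, and their products defend the epithelium and the immune cells beneath it.

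RefSeq promoter windows on build GRCm38.p6, from 250 bases before to 50 bases after a transcript start, were matched for 26 of the 35 genes, with 33 windows in all. The letters GAAANNGAAA, a core of the ISRE, were searched on both strands. They stood in 14 of the 33 windows, those of 14 of the 26 genes, against 3.44% of the 32851 windows of the same length genome-wide. The letters TTCNNNGAA, a core of the GAS, stood in 9 of the 33 windows, those of 9 of the 26 genes, against 8.30% of all windows. A match describes letters and not a bound site. The windows shown are those of 10 genes described below, written 5′ to 3′ along the gene, with the ISRE letters in capitals. Bst2 (chr8:71537423-71537722, minus strand), Rsad2 (chr12:26456403-26456702, minus strand), Ifit1 (chr19:34640639-34640938, plus strand) and Stat2 (chr10:128270248-128270547, plus strand) carry them upstream of the start.
Bst2: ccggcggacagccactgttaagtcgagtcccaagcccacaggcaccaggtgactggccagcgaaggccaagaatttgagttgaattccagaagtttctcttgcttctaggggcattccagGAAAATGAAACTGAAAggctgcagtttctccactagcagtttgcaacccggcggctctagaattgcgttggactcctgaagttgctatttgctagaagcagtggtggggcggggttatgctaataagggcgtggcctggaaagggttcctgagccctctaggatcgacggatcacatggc
Rsad2: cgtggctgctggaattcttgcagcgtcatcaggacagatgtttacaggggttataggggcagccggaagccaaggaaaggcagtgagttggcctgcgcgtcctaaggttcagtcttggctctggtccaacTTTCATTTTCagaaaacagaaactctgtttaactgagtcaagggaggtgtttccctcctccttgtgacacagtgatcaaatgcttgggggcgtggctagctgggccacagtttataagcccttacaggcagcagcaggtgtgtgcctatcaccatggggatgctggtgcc
Ifit1: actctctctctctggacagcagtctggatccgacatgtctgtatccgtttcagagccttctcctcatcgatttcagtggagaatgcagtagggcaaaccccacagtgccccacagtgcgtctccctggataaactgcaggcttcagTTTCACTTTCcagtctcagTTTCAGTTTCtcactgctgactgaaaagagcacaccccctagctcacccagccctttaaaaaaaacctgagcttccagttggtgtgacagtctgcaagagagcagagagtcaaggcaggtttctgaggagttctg
Stat2: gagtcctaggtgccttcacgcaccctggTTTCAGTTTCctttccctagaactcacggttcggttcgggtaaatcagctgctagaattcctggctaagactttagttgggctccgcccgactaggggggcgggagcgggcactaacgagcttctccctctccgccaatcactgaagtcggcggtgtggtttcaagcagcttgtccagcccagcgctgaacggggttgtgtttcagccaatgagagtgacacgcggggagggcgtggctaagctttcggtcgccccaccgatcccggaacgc
The GTPase genes Gbp2 (chr3:142620413-142620712, plus strand), Igtp (chr11:58199306-58199605, plus strand) and Irgm1 (chr11:48871371-48871670, minus strand) carry them close to the start, beginning at -59, at -34, and at -30 and -24.
Gbp2: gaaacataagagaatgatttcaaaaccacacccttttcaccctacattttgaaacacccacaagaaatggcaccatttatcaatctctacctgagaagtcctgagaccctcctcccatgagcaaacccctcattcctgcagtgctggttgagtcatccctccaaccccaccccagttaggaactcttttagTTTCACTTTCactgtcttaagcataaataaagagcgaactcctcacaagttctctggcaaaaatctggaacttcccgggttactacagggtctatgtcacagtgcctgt
Igtp: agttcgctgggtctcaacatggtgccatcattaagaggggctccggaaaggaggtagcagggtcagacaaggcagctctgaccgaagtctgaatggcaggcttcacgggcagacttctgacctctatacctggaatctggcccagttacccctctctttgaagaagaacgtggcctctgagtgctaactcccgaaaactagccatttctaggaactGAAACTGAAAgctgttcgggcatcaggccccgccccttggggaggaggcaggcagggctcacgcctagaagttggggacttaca
Irgm1: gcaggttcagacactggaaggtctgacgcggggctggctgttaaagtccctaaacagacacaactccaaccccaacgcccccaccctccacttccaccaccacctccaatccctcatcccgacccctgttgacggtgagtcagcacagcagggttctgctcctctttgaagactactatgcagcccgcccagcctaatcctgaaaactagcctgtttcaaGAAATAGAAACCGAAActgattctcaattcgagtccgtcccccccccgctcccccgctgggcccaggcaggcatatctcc
The windows of the immunoproteasome genes Psmb8 (chr17:34197945-34198244, plus strand) and Psmb9 (chr17:34187281-34187580, minus strand) hold no ISRE letters, nor does that of Tap1, which overlaps the Psmb9 window on the opposite strand.
Psmb8: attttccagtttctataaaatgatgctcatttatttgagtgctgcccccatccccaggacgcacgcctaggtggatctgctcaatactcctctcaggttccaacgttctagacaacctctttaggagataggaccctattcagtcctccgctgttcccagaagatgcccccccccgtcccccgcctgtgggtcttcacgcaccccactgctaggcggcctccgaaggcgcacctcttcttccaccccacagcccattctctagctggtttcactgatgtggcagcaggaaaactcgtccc
Psmb9: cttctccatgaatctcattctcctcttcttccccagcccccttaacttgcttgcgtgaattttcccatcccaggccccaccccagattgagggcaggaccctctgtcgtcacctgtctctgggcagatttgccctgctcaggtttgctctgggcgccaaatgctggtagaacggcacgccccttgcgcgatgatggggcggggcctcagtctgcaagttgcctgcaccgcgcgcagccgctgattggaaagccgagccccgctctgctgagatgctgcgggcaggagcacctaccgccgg
Isg20 has 3 windows, none with ISRE letters, and the one shown (chr7:78913174-78913473, plus strand) holds GAS letters at -73.
Isg20: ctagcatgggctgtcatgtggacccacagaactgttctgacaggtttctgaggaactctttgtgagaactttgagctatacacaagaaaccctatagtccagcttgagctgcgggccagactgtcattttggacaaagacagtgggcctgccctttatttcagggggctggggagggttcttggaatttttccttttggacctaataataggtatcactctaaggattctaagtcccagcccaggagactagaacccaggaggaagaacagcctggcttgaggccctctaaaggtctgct
In Bst2 and Irgm1 a pair of ISRE matches overlap, at -130 and -124 in Bst2, so each pair reads as 1 run of capitals. Ifit1 has separate matches at -104 and -85, Rsad2 has its match at -120, and Stat2 has its match at -222.

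Some arrays stood apart before any gene was tested. The Gapdh control, whose 3′ signal over its 5′ signal is a measure of how complete the labelled RNA is, gave ratios of 0.746 to 1.12 in 14 arrays. The ratio was 36.0 in 4am a, 18.2 in 4am b, 34.3 in 4pm b and 2.33 in 4pm c. Array 4am a also held the highest value of 21.6% and the lowest value of 22.1% of all 12870 genes. Results that rest on these arrays are given with and without 4pm b, 4am a and 4am b. Without them 4am is the single array 4am c, so that time then has no replicate. Leaving out 4pm c as well leaves 4pm a alone at 4pm. Values of these fits that involve 4am, and their counts, are therefore not replicated estimates. Shifting every array to a common median in place of the deposited scaling moved the median log2 difference of all genes from -0.05 to 0.10 for 8am and 8pm against the other times, from 0.06 to -0.23 for 12pm and 12am, and from 0.03 to 0.17 for 4pm and 4am. It also moved 12pm minus 12am from -0.03 to 0.13 and 4pm minus 4am from 0.12 to -0.09, so differences are read against that shift.

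Differences below are on the log2(signal + 16) scale, which understates changes of dim genes, and levels of different genes are not set against each other. No interferon response gene passed as rhythmic over 24 h. In limma's fit of a 24 h cosine curve 0 of 29 had a Benjamini-Hochberg adjusted p under 0.05, beside 0.0389% of all genes, and the lowest adjusted p was 0.948. At an unadjusted p under 0.05 the fit listed 4 of 29 (13.8%, against 3.95% of all genes), namely Irf8, Gbp2, Igtp and Iigp1. The fitted log2 amplitude, from midline to peak, had a median of 0.29 over the 29 genes and of 0.19 over all genes. It ranged from 0.09 in Isg20 to 0.56 ± 0.17 (SE) in Gbp2.

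Differences of any shape between the 6 times passed for 4 of 29 genes (13.8%), beside 17.0% of all genes. These were Psmb8 (limma adjusted p = 0.0220), Bst2 (0.0234), Psmb9 (0.0375) and Rsad2 (0.0382). With 1 array left out, the call of Psmb9 was lost in 14 of 18 fits and that of Rsad2 in 12 of 18. The call was also lost with a common median for Psmb9, and with quantile normalization or a replicate block for Rsad2. That of Psmb8 was lost without 4am a or 4am b (adjusted p up to 0.0778). Time means of a gene spanned a median of 0.88 log2 units over the 29 genes and 0.90 over all genes, and the spread between arrays of a time had a median SD of 0.40 and 0.37. Without the 3 arrays 4pm b, 4am a and 4am b the count was again 4, when 22.8% of all genes passed, with 0 genes shared: Stat2 (adjusted p = 0.0070), Isg20 (0.0282), Gbp2 (0.0341) and Iigp1 (0.0367). Without 4am c, the array of that time with a Gapdh ratio near 1, the count was 15 and included the original 4, when 53.9% of all genes passed.

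Times 12 h apart gave no call. Tested together, the differences 8am minus 8pm, 12pm minus 12am and 4pm minus 4am passed for 0 of 29 genes (0.0777% of all genes), with 7 of 29 at an unadjusted p under 0.05 (24.1%, against 11.0%). Taken singly, limma called 0 of 29 in each, beside 0.00777%, 0% and 0.0466% of all genes in that order. At an unadjusted p under 0.05 the counts were 0, 7 and 7 of 29, beside 2.88%, 8.11% and 19.7% of all genes. The mean of the 3 light times minus the mean of the 3 dark times also passed for 0 of 29 (0% of all genes). In the light 14 genes were higher and 15 lower, where 51.4% of all genes were higher. The unadjusted p was under 0.05 for 4 of 29 (13.8%, against 6.21% of all genes), with Irf1 and Irf8 higher and Ddx58 and Gbp2 lower. In 4pm minus 4am, 23 of 29 genes had a positive difference, beside 58.9% of all genes. The median was 0.52 against 0.12 over all genes (20 of 29 and 0.31 with a common median). For the 7 genes at an unadjusted p under 0.05 the difference ran from 0.69 in Xaf1 to 1.88 in Psmb8. Without 4pm b, 4am a and 4am b it ran from -0.035 in Psmb9 to 0.49 in Parp14 for the same 7 genes. In 12pm minus 12am, 22 of 29 had a negative difference and 7 a positive one, where 46.2% of all genes had a positive one. The median was -0.22 against -0.03 over all genes (16 of 29 negative and -0.056 with a common median).

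Complete separation of the 3 arrays of a time from the 3 arrays taken 12 h later was counted as well. All 12am arrays lay above all 12pm arrays in 7 of 29 genes, Ddx58, Ifit3, Oas1a, Iigp1, Tap1, Psmb8 and Psmb9, beside 10.3% of all genes. The reverse held for Irf8 alone, beside 11.0%. All 8pm arrays lay above all 8am arrays in Gbp2, Igtp and Psmb9 (8.46% of all genes) and the reverse held in 0 of 29 (5.63%). All 4pm arrays lay above all 4am arrays in Irf8, Parp14 and Psmb8 (5.57%) and the reverse held in 0 of 29 (2.27%).

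More calls came when the times were compared as sets 12 h apart, called here the 8, 12 and 4 o'clock sets. This grouping was picked after results from the same arrays had been seen. The counts and adjusted p-values for these sets, here and in the gene descriptions below, are therefore not those of tests fixed beforehand. The mean of 8am and 8pm minus that of the other 4 times passed for 4 of 29 genes, beside 16.4% of all genes, with Isg20 and Bst2 higher and Rsad2 and Stat2 lower. The mean of 12pm and 12am minus the rest passed for Stat2 and Dhx58, both higher, beside 13.8%. The mean of 4pm and 4am minus the rest passed for 8 of 29, beside 24.9%, with Rsad2 higher and Bst2, Psmb8, Psmb9, Oas1a, Eif2ak2, Dhx58 and Irf7 lower. Scaled to a common median, the calls were 4 higher and 0 lower in the 8 o'clock set, 1 higher and 4 lower in the 12 o'clock set, and 1 higher and 4 lower in the 4 o'clock set. Without the 3 arrays the 4 o'clock count was 1 of 29, Bst2, when 3.12% of all genes passed. Without 4am c alone it was 12 of 29, the original 8 among them, when 45.5% of all genes passed.

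**Figure D1:**
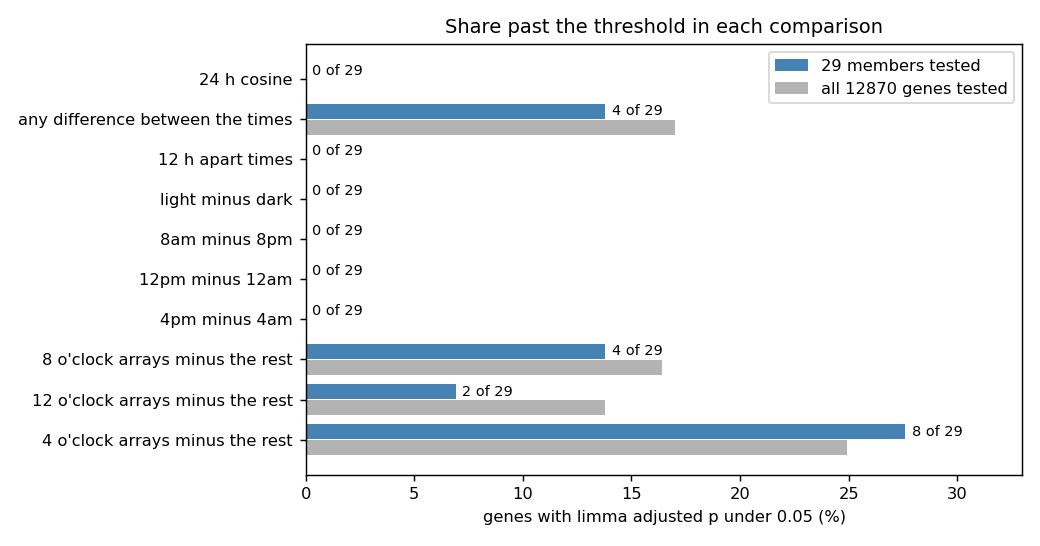
Share of genes with a limma adjusted p under 0.05 in each of the 10 comparisons, in percent, for the 29 interferon response genes (blue, with the count) and for all 12870 genes tested (grey). The blue bar is above the grey one only for the 4 o'clock set, at 27.6% against 24.9%.

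Within the 33 genes with a value, a few arrays held many of the extremes. Array 12am b held the highest value of 10 genes (Stat2, Irf1, Dhx58, Mx2, Parp14, Igtp, Irgm1, Tap1, Psmb8 and Psmb9), and 24 of the 29 tested genes lay above their own median there, by a median of 0.45 log2 units against 0.01 over all genes. Array 4pm b held the highest value of Irf8, Usp18, Ifit1, Ifit2, Ifit3, Rsad2 and Oasl2. Array 4am a held the lowest value of Stat2, Irf1, Irf9, Eif2ak2, Bst2 and Cxcl10 and the highest of Ifih1, Rtp4, Gbp2 and Gbp3. Array 4am b held the lowest of Irf7, Irf8, Dhx58, Ifit3, Oas1a, Parp14, Psmb8 and Psmb9. Among the 29 tested genes, 12am b held the highest value of 9 and 4pm b of 6, beside 7.54% and 5.16% of all genes. Array 4am a held the lowest of 6 and the highest of 4, beside 22.1% and 21.6%. Array 4am b held the lowest of 8, beside 13.3%. The lowest of the 6 time means was that of 4am for 13 of 29 genes, and for 32.0% of all genes.

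**Figure D2:**
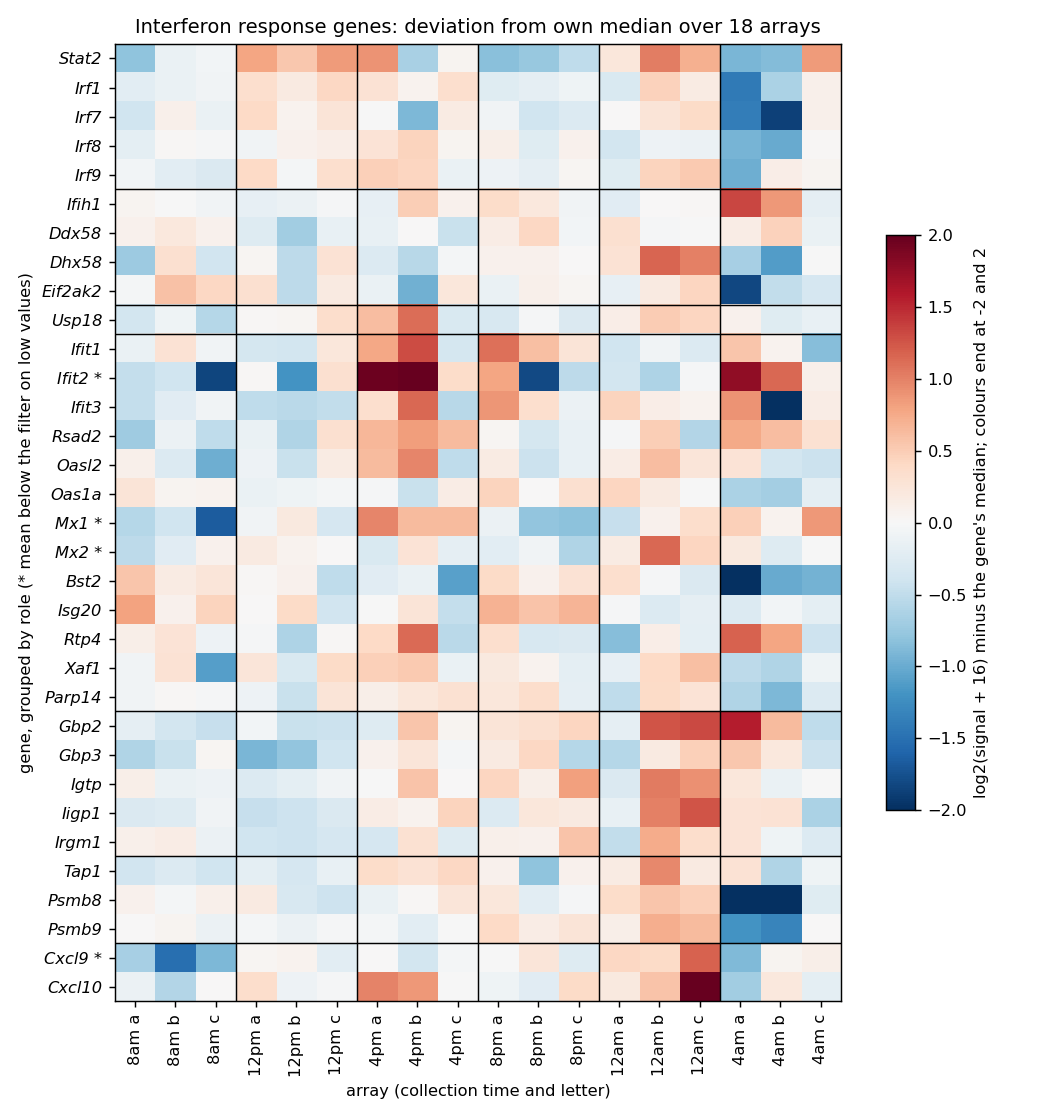
Deviation of each of the 33 genes with a value from its own median over the 18 arrays, on the log2(signal + 16) scale, with arrays in columns by collection time and genes in rows by role; genes marked * lie under the filter on low values. Red columns stand out at 12am b and 12am c for the GTPases, and dark blue cells at 4am a and 4am b for Psmb8, Psmb9, Irf7 and Irf8.

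Of the transcription factors of the response, Irf1, Irf7 and Irf8 had their lowest values in 4am a and 4am b. Irf1, the factor that carries the interferon gamma signal, had signals of 833, 1450 and 2422 in 4am a, b and c, and between 1822 and 3105 in the other 15 arrays. Irf7, which amplifies type I interferon production, had 416, 291 and 1193 at 4am, 1093, 582 and 1242 at 4pm, and between 832 and 1459 elsewhere. Only the 4am arrays a and b and 4pm b fall below that range. Irf7 was lower in the 4 o'clock set by a log2 difference of -0.67 ± 0.23 (SE, limma adjusted p = 0.0451), the value was 0.075 without the 3 arrays, and the call was lost in 16 of the 18 fits that leave out 1 array.

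Irf8, a factor of myeloid and B cells, had log2 means of 10.53 ± 0.20 (SD, n = 3) at 4pm and 9.64 ± 0.57 at 4am, and its fitted 24 h peak lay at 8.39 h after lights on. Its 4pm minus 4am difference was 0.89 ± 0.24 (SE, limma adjusted p = 0.137) and 0.14 without the 3 arrays. A second Irf8 probe set gave another pattern: its signals were 176 in 4pm b, 164 in 4am a and 476 in 4am b against 653 to 1893 in the other 15 arrays, and its 4 o'clock difference was -1.29 (adjusted p = 0.0155) where the first gave -0.14. Irf9, the DNA-binding part of the type I complex, passed in no comparison, with signals from 267 to 781.

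Stat2, which acts with Irf9 in the type I complex, followed the sets of times. The 8am arrays had signals of 106, 177 and 189 and the 8pm arrays 103, 110.3 and 133, while the 12pm arrays had 351, 293 and 369 and the 12am arrays 232, 415 and 333. No array of the 8 o'clock set overlaps any of the 12 o'clock set. In a second Stat2 probe set, under the filter (mean log2 signal 6.84), the sets did overlap. It ran from 23.9 to 139 in the 8 o'clock set and from 93.6 to 281 in the 12 o'clock set. At 4pm the first probe set had 379, 119 and 204, and at 4am 97.1, 101 and 369, with the low values in 4pm b, 4am a and 4am b. The 12 o'clock difference was 1.00 ± 0.27 (SE, limma adjusted p = 0.0244) against an all-gene median of 0.06, and the 8 o'clock difference -0.81 ± 0.27 (adjusted p = 0.0464). Without the 3 arrays these were 0.61 (adjusted p = 0.0567) and -1.19 (adjusted p = 0.000383). The 12 o'clock call was lost without 12pm a, 12pm c, 12am b or 12am c (adjusted p up to 0.0618), and the 8 o'clock call in 13 of the 18 fits without 1 array and with a common median.

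Of the sensors of foreign RNA, Ddx58 (RIG-I) and Ifih1 (MDA5) start the signalling that leads to interferon, Dhx58 (LGP2) modulates them, and Eif2ak2 (PKR) shuts down translation on binding double-stranded RNA. Ifih1 was highest in 4am a (4916) and 4am b (3537), while 4am c had 1715 and the other 15 arrays lay between 1661 and 2721. Eif2ak2 had 115, 311 and 350.3 at 4am, with 222 in 4pm b, and 307 to 678 in the other 14 arrays. Its 4 o'clock difference was -0.70 ± 0.23 (SE, limma adjusted p = 0.0338) and -0.26 without the 3 arrays, the call was lost in 9 of the 18 fits without 1 array, and its other probe sets gave -0.37 and -0.21.

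Dhx58 was high in 12am b (743) and 12am c (663), against 397 in 12am a and 332, 219.9 and 397 at 12pm. Array 12am a thus lay no higher than 12pm c or than 8am b, which had 407. A further Dhx58 probe set, under the filter (mean log2 signal 6.79), went the other way. It had 145.8, 52.8 and 74.0 at 12am against 259.5, 143.5 and 213.3 at 12pm. Dhx58 was higher in the 12 o'clock set by 0.65 ± 0.20 (SE, limma adjusted p = 0.0415) and lower in the 4 o'clock set, with a log2 difference of -0.58 ± 0.20 (adjusted p = 0.0446), and each call was lost in 13 of the 18 fits without 1 array and with a common median. Without the 3 arrays these were 0.47 (adjusted p = 0.127) and -0.22 (adjusted p = 0.642). Ddx58 had 529, 389.6 and 577 at 12pm, its lowest time mean, and lay between 466 and 882 elsewhere, with a light minus dark difference of -0.28 ± 0.13 (SE, adjusted p = 0.749).

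Usp18, the protease that removes Isg15 from proteins and blocks the type I receptor, ranged from 166 to 566 and passed in no comparison. Its high values were 397 in 4pm a and 566 in 4pm b, with 201 in 4pm c. The same 2 arrays lay above 4pm c for the Ifit genes, whose products bind foreign RNA and which lie next to each other on chromosome 19. Ifit1 had 372, 545 and 162 at 4pm and 110.4 to 471 in the other 15 arrays. Ifit3 had 249.8, 455 and 128 at 4pm, and 380.3, 23.4 and 219 at 4am, so that 4am b held the lowest value of all arrays and 4am a was exceeded only by 4pm b. Ifit1 and Ifit3 had their highest time mean at 8pm, with 471 and 374 in 8pm a.

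Ifit2, under the filter, had 428 and 455 in 4pm a and b, 373 and 236 in 4am a and b, and 15.8 to 180.4 in the other 14 arrays. Oasl2, an oligoadenylate synthetase-like protein, had 642, 813 and 281 at 4pm and 199 to 634 in the other 15 arrays. Mx1, a GTPase that blocks virus replication and is also under the filter, had 198, 152 and 152 at 4pm and 135, 96.9 and 181 at 4am, against 18.01 to 122 elsewhere, and its relative Mx2 stayed between 10.3 and 72.8. At these signals a value may be background. Within-time SD was widest for Ifit3, at 0.83 log2 units, among the 29 genes tested. None of Ifit1, Ifit3, Usp18 and Oasl2 passed in any of the 10 comparisons, and the lowest adjusted p among them was 0.0656, for Usp18 in the 8 o'clock set.

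**Figure D3:**
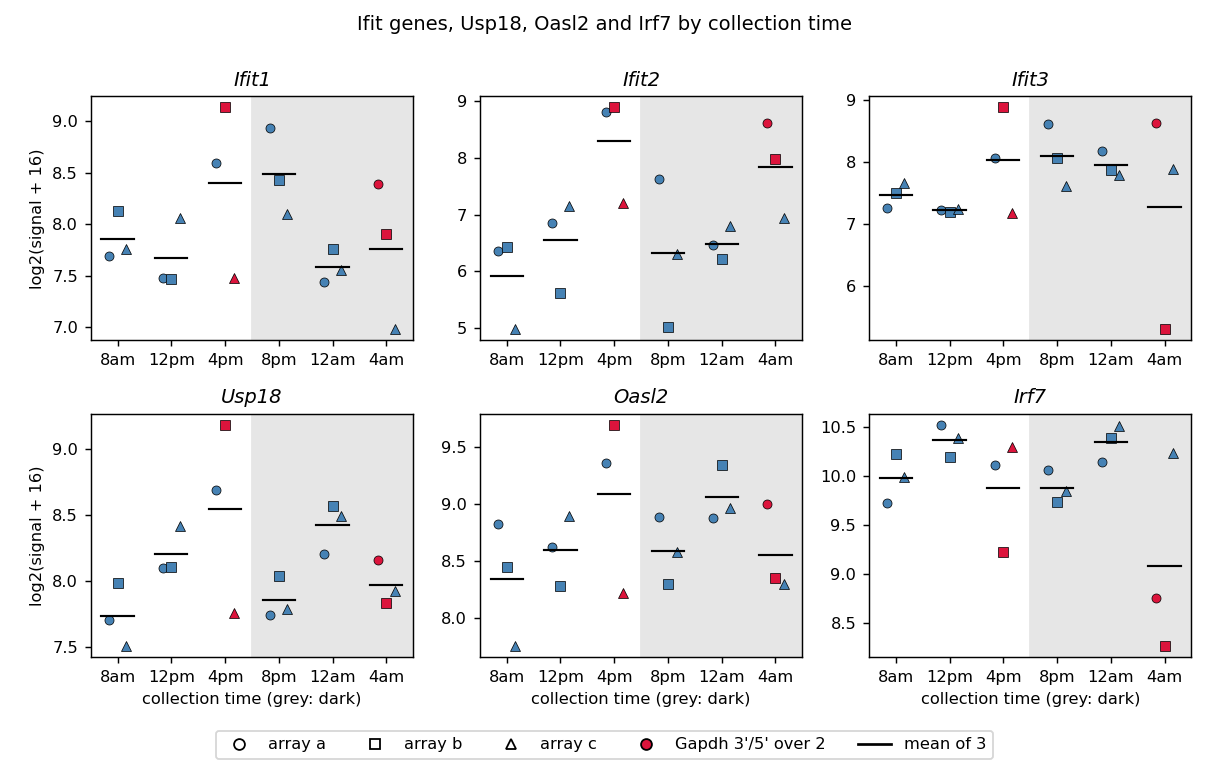
Log2(signal + 16) of Ifit1, Ifit2, Ifit3, Usp18, Oasl2 and Irf7 in each of the 18 arrays by collection time; circles, squares and triangles are arrays a, b and c, red fill marks arrays with a Gapdh 3′ to 5′ ratio over 2, bars are means of 3 arrays and grey marks the dark. At 4pm the arrays a and b lie well above c for the first 5 genes, and Irf7 is lowest in 4am a and 4am b.

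Among antiviral effectors, Rsad2 and Bst2 differed between times. Rsad2 (viperin), which makes a chain-terminating nucleotide, had 823, 926 and 803 at 4pm and 881, 794 and 636 at 4am. The 8am arrays had 308, 474 and 357, the 8pm arrays 525, 400.5 and 463, the 12pm arrays 469, 334 and 647 and the 12am arrays 502, 726 and 338. The 4pm arrays lie above all arrays of the other sets, and those of 4am overlap them only through 4am c. Rsad2 was higher in the 4 o'clock set by 0.83 ± 0.17 (SE, limma adjusted p = 0.0065) against an all-gene median of 0.03, with a range of 0.51 to 0.97 over the 31 alternative settings. Without the 3 arrays the difference was 0.67 (adjusted p = 0.103). The 8 o'clock difference was -0.57 ± 0.17 (adjusted p = 0.0308), a call lost with a common median and in 5 of the 18 fits without 1 array. Of its other probe sets, 1 gave 0.74 (adjusted p = 0.0302) and 1 gave -0.05.

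Bst2 (tetherin), a membrane protein that holds budding virus on the cell, was lower at the 4 o'clock times. Its signals were 30.8, 121 and 127 at 4am, and 219, 234 and 113 at 4pm. The 8am arrays had 388, 292 and 309, the 8pm arrays 344.5, 276 and 320.3, the 12pm arrays 265, 277 and 177 and the 12am arrays 332, 254 and 208. All 4am arrays lie below every array of the other 5 times except 4pm c. The 4 o'clock difference was -1.11 ± 0.23 (SE, limma adjusted p = 0.0065) and -0.92 (adjusted p = 0.0374) without the 3 arrays, and the 8 o'clock difference was 0.82 ± 0.23 (adjusted p = 0.0229) and 0.72 (adjusted p = 0.0066). Leaving out 4am a, whose signal of 30.8 is the lowest, or any other single array did not end the 4 o'clock call, with adjusted p up to 0.0156. The 8 o'clock call was lost without 8am a, 8am c, 8pm a or 8pm c (adjusted p up to 0.0700).

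Isg20, a nuclease that degrades single-stranded RNA, was highest at the 8 o'clock times. Its signals were 1573, 942 and 1221 at 8am and 1454, 1331 and 1442 at 8pm, against 636 to 1165 in the 12 arrays of the other times. Only 8am b overlaps the rest. The difference was 0.65 ± 0.15 (SE, limma adjusted p = 0.0075) against an all-gene median of -0.05, and the call held in all 31 alternative settings, the common median and the fit without the 3 arrays included, with values from 0.56 to 0.80. Within the set, 8am minus 8pm was -0.21 ± 0.24 (SE, adjusted p = 1.00).

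Oas1a, an oligoadenylate synthetase that activates RNase L, had 1504, 1446 and 2039 at 4am and 1703 in 4pm b, and 2135 to 3176 in the other 14 arrays. It was lower in the 4 o'clock set, with a log2 difference of -0.43 ± 0.13 (SE, limma adjusted p = 0.0243), a difference of -0.19 (adjusted p = 0.400) without the 3 arrays, and the call was also lost with a common median and without 4pm b or 4am a alone (adjusted p up to 0.0898). Rtp4, a chaperone for receptors that is strongly induced by interferon, was high in 4pm b (1894), 4am a (1965) and 4am b (1499) and between 469 and 1137 in the other 15 arrays. Parp14, an ADP-ribosyltransferase, had 840.1, 907 and 953 at 4pm and 503, 405 and 633 at 4am, with no overlap. Its difference was 0.81 (limma adjusted p = 0.158), and 0.49 without the 3 arrays. Xaf1, an interferon-induced protein that promotes cell death, ranged from 240.4 in 8am c to 821 in 12am c. Xaf1, Parp14 and Rtp4 passed in no comparison.

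**Figure D4:**
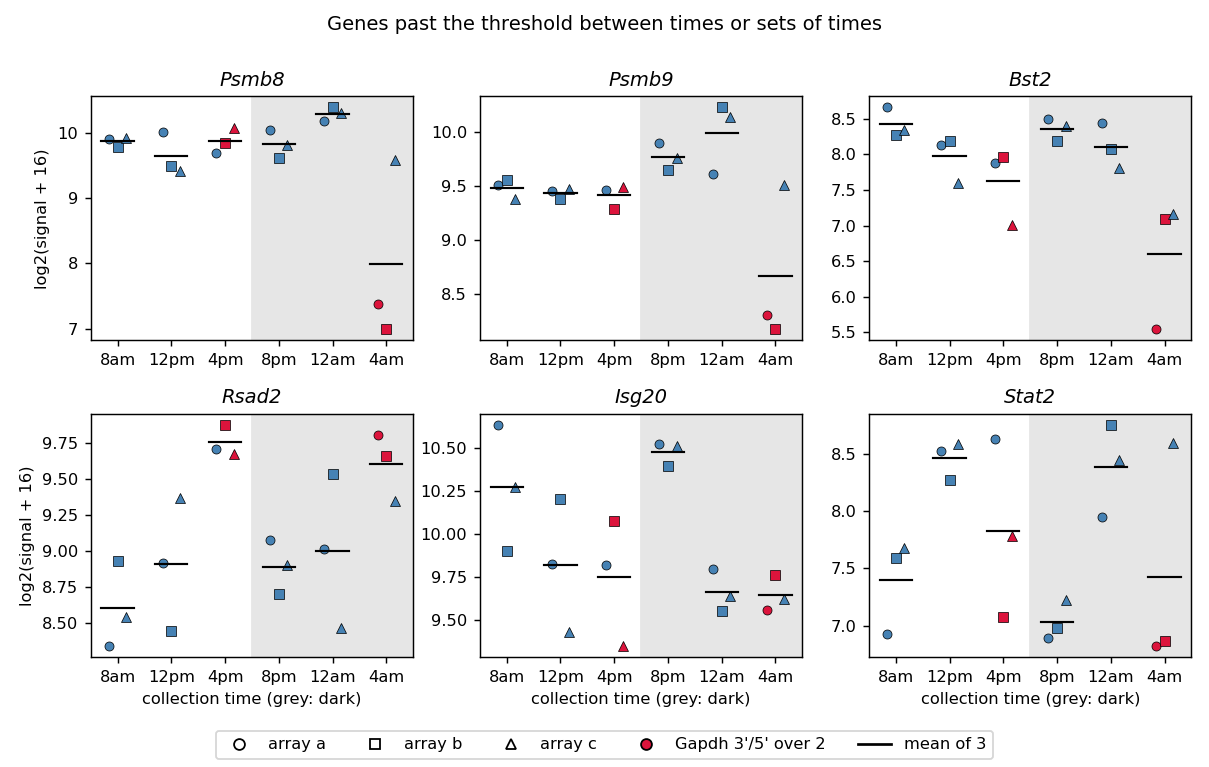
Log2(signal + 16) of 6 genes that passed in at least 1 comparison, in each of the 18 arrays by collection time; symbols are arrays a, b and c, red fill marks a Gapdh 3′ to 5′ ratio over 2, bars are means of 3 arrays and grey marks the dark. Psmb8 and Psmb9 are low in 4am a and 4am b alone, Bst2 is low in all 3 arrays of 4am, Rsad2 is high at 4pm and 4am, and Isg20 is high at 8am and 8pm.

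The interferon-inducible GTPases, which take part in defence against intracellular pathogens and respond chiefly to interferon gamma, were high in the same arrays. Averaged over the 5 genes, the deviation from their own medians was 0.85 and 0.86 log2 units in 12am b and c, -0.34 in 12am a, 0.58 in 4am a, and between -0.45 and -0.31 in the 12pm arrays. Gbp2 had 789, 2173 and 2252 at 12am against 862, 652 and 659 at 12pm. Iigp1 had 682, 1538 and 1826 against 549, 566 and 616, with no overlap between the groups. Igtp had 405, 1045 and 953 against 409, 437 and 477, and Irgm1 541, 1288 and 976 against 575, 569 and 602, so that in both genes 12am a lies below all of 12pm. Gbp3 had 245, 424 and 520.0 against 189.7, 208 and 278, and its highest value, 547, in 4am a, as in Gbp2 with 2693.

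In 12pm minus 12am all 5 GTPases had negative log2 differences in the main fit, from -1.11 in Gbp2 and -1.09 in Iigp1 to -0.58 in Irgm1. They were also negative in each of the 31 alternative settings. Settings that leave the 12pm and 12am values as they are, such as leaving out an array of another time, could not alter these differences. None passed in limma, with adjusted p from 0.522 to 0.613, beside 0% of all genes. With limma's array weights all 5 passed (adjusted p from 0.0063 to 0.0421), beside 3.36% of all genes. Without 12am a the differences ran from -1.60 to -0.93, with a lowest adjusted p of 0.114. Second probe sets of Gbp2 and Iigp1 each gave -0.67.

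Their 24 h curves had close peak times, from 14.8 h after lights on in Igtp to 16.6 h in Gbp2, all in the dark, with amplitudes from 0.25 in Irgm1 to 0.56 in Gbp2 and adjusted p of 0.948 for each. The light minus dark difference was negative in all 5, with a median of -0.36. T cell markers, of which 5 of 6 had a probe set and 1 passed the filter, had a high sum in the same arrays: their summed signal was 421 in 12am a, 886 in 12am b, 970.1 in 12am c and 818 in 4am a, against 340.4 to 780.0 in the other 14 arrays. None of these markers is at 0. The B and plasma cell markers were also lower in 12am a (4476) than in 12am b and c (10789.9 and 9979.5). Their highest sum was in 4am a (14664), while 8am a had 13434. Other lists did not follow in 12am a, b and c: those of macrophages and monocytes summed to 13279, 9472 and 10550.8, with 9582 in 4am a. Ptprc, carried by all leukocytes, had 402, 372 and 573.5 there and its highest value, 2691, in 4am a. The part of these cells in the result was not tested. Ifng, the gene of interferon gamma itself, lay under the filter, with 92.0, 102 and 212 at 12am and 105, 52.1 and 105 at 12pm.

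**Figure D5:**
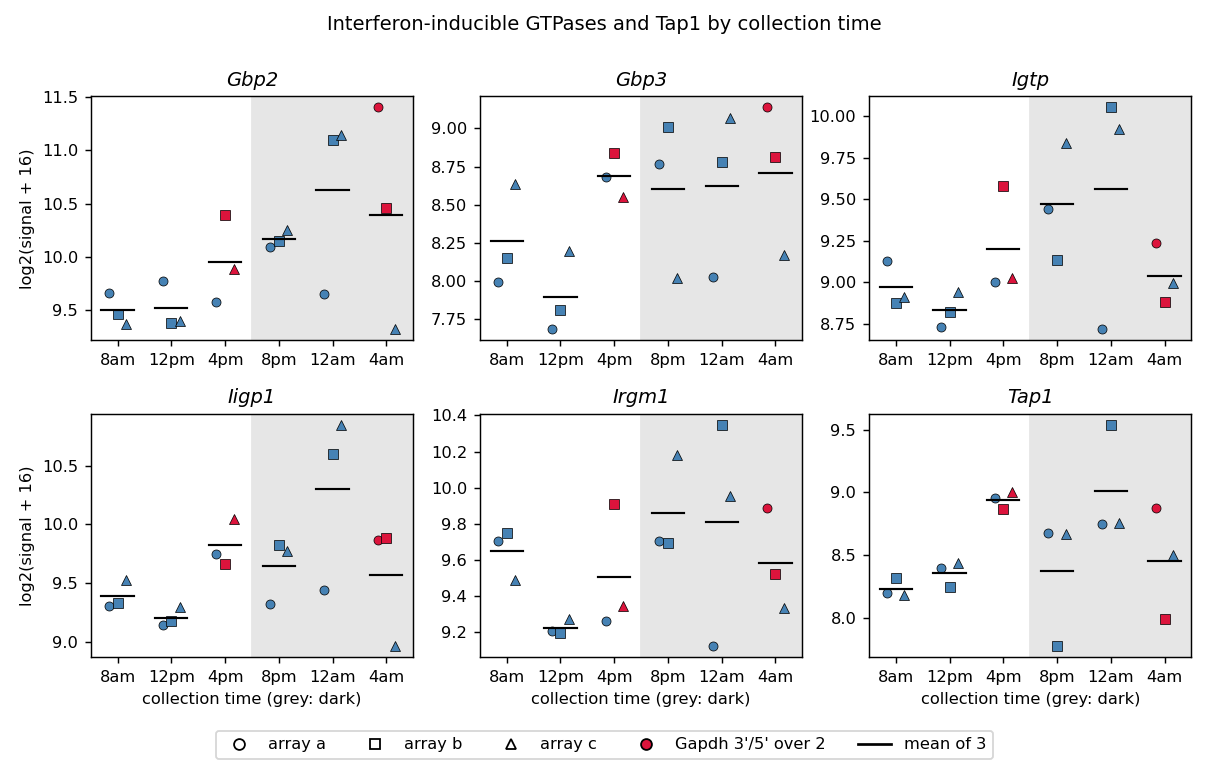
Log2(signal + 16) of the 5 interferon-inducible GTPases and of Tap1 in each of the 18 arrays by collection time; symbols are arrays a, b and c, red fill marks a Gapdh 3′ to 5′ ratio over 2, bars are means of 3 arrays and grey marks the dark. The 12am arrays b and c lie well above 12am a for each GTPase, while for Tap1 only 12am b does.

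Antigen processing genes lie together on chromosome 17 in the major histocompatibility complex. Psmb8 (LMP7) and Psmb9 (LMP2) are the interferon-induced catalytic subunits of the immunoproteasome, and Tap1 is a chain of the transporter that brings peptides to MHC class I. Psmb8 had 150.4, 112 and 750.4 at 4am, against 662.5 to 1321 in the other 15 arrays, with the top 3 values at 12am. Psmb9 had 301, 273 and 712 at 4am, against 609 to 1182 in the other 15 arrays, and again the highest values, 1182 and 1109, in 12am b and c. In each gene 4am c lies among the other times and only 4am a and 4am b lie apart. The extreme arrays of Psmb8 differ 10.5-fold on signal + 16.

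Psmb8 was lower in the 4 o'clock set, with a log2 difference of -0.98 ± 0.27 (SE, limma adjusted p = 0.0182) and so was Psmb9, with -0.63 ± 0.17 (adjusted p = 0.0174). Without the 3 arrays these were -0.18 (adjusted p = 0.537) and -0.18 (adjusted p = 0.495). The largest difference of the 29 genes between times 12 h apart was that of Psmb8 for 4pm minus 4am, 1.88 ± 0.44 (SE, adjusted p = 0.118), and it was 0.29 without the 3 arrays. That of Psmb9 was 0.75, and -0.035 without them. The 4 o'clock call of Psmb8 was lost without 4am a alone (adjusted p = 0.0575), and that of Psmb9 without 4pm b or 4am a (adjusted p up to 0.0533). Tap1 had 320.5, 288 and 331 at 12pm and 413, 729 and 416 at 12am, a difference of -0.65 ± 0.28 (SE, adjusted p = 0.569), and its second probe set gave -0.99.

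The chemokines Cxcl9 and Cxcl10 draw T cells through the receptor Cxcr3 and lie side by side on chromosome 5. Cxcl10 reached 827 in 12am c, with 209 and 276 in 12am a and b, 376 and 344 in 4pm a and b, and 106 to 241 in the other 13 arrays. Cxcl9, under the filter, was also highest in 12am c (299) and lowest in 8am b (32.6). Cxcl10 passed in no comparison, with 12pm minus 12am at -0.87 ± 0.41 (SE, limma adjusted p = 0.613), and -0.30 without 12am c.

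Other genes of the pathway came from lists chosen for this tissue, and none passed as rhythmic over 24 h. Of the interferon genes, 10 of 17 had a probe set and 3 passed the filter. Ifnab and Ifnb1, type I interferons, were lower in the 8 o'clock set, with log2 differences of -1.61 ± 0.20 (SE, limma adjusted p = 0.0001) and -1.12 ± 0.17 (adjusted p = 0.0005), and higher in the 12 o'clock set, with 1.11 and 0.68. Ifnb1 had 86.5, 119 and 108 at 8am and 159, 132 and 134 at 8pm, against 187.5 to 413 in the other 12 arrays, with no overlap. Both 8 o'clock calls remained without the 3 arrays, while of the 12 o'clock calls only that of Ifnab did, with Ifnb1 at 0.52 (adjusted p = 0.0539). With mean log2 signals of 7.47 (Ifnab) and 7.85 (Ifnb1), both lay not far above the filter, and a low value may be background. Array median signals also ran from 161 to 184 in the 8 o'clock set and from 188 to 252 in the 12 o'clock set. The part of that shift in these differences was not tested.

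The counts that follow for the 4 o'clock set stand beside 24.9% of all genes called, and those without the 3 arrays beside 3.12% there and 32.9% in the 8 o'clock set. Among 13 tested receptors, kinases and inhibitors, 5 passed in the 4 o'clock set, with Ptpn2, Ifnar2 and Jak2 higher and Ifngr2 and Il10rb lower, and 0 passed without the 3 arrays. Ifngr2, a chain of the interferon gamma receptor, had 12.7, 369 and 2194 at 4am and 1240.4, 194 and 319.6 at 4pm, against 889.8 to 2538 in the other 12 arrays. Its 4 lowest arrays are the 4 with a Gapdh ratio over 2, and the part of that ratio was not tested. Among 13 tested genes of sensing and induction, 5 passed in the 4 o'clock set, with Trim25, Tbk1, Tlr9 and Tlr3 higher and Ticam1 lower, and 1, Tlr9, without the 3 arrays.

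Of 45 further interferon-stimulated genes tested, 13 passed in the 4 o'clock set, 10 higher and 3 lower, with a list median of 0.14. Helz2 was higher by 0.67 ± 0.14 (SE, limma adjusted p = 0.0065) and Ifitm2 lower, with -0.73 ± 0.15 (adjusted p = 0.0066), and without the 3 arrays Ifitm2 alone of the 45 passed in that set. In the 8 o'clock set the same fit raised the count from 4 to 13 of 45, and for any difference between the times from 5 to 7. Of 12 tested genes of MHC class I presentation, 7 passed in the 4 o'clock set, all lower, with a list median of -0.51. They were Pdia3, Psmb10, H2-D1, Tap2, Calr, Tapbpl and Psme1, and 1 passed without the 3 arrays, Pdia3. In the 8 o'clock set that fit raised the count from 1 to 6 of 12, namely B2m, Erap1, H2-D1, Nlrc5, Pdia3 and Psme1. Tap2, the partner of Tap1, had 27.5, 15.5 and 569.8 at 4am, and Psmb10, the remaining interferon-induced proteasome subunit, had 449, 662 and 1759, so that in each of these genes, as in Psmb8 and Psmb9, 4am a and 4am b lie below 4am c.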

How the data were processed

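Per the submitters' processing notes the arrays were processed with GCOS, the Affymetrix array software. The authors deposited 1 linear intensity (signal) per probe set and array for 45101 probe sets, and the mean after trimming 2% of probe sets at each end was 500 in every array, so each array carries 1 scaling factor. The deposited intensity values come without detection calls, so a low signal may be background, and the number of arrays limits precision. Values were taken as log2(signal + 16). Of 45037 probe sets that are not Affymetrix controls, 34945 have 1 gene symbol, 932 several and 9160 none listed. The 40th percentile of the mean log2 value served as filter, which left 12870 genes.

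With limma 3.58.1 in R 4.3.3, a 24 h cosine curve (15 residual degrees of freedom) and 6 group means (12) were fitted on all 18 arrays, with moderation by empirical Bayes and a variance trend. Two-sided p-values were adjusted over the 12870 genes (Benjamini-Hochberg, threshold 0.05). The tests were tried on simulated data. Alternatives changed the constant, scaling, filter, probe set, moderation and arrays used. The genes, lists and sets of times were chosen with earlier results of these data known. The text names all 35 genes, and of other lists those past the threshold, at most 6 by lowest adjusted p, plus those a small count needs; Ifng, all 7 MHC class I genes and the remarks on single arrays were chosen after values were seen. Gene symbols come from the platform annotation, and promoter windows and neighbours from RefSeq.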

Additional observations from a re-analysis of the deposited data

Results flagged for a closer look

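Psmb8, a subunit of the immunoproteasome, had differences of opposite sign between times 12 h apart, neither of which passed in limma (adjusted p = 0.118 for 4pm minus 4am and 0.730 for 12pm minus 12am). Its log2 difference was 1.88 for 4pm minus 4am, with all 3 arrays of 4pm above all 3 of 4am, and -0.65 for 12pm minus 12am, with all 3 arrays of 12pm below all 3 of 12am. The difference between these differences was not tested. The first was 0.29 without 4pm b, 4am a and 4am b, the arrays with the highest Gapdh 3′ to 5′ ratios, which leaves 4am c alone at 4am.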

How the results depend on the processing

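The count of rhythmic genes was 0 of 29 in each of the 32 alternative settings of the 24 h curve, a 12 h harmonic included. With array weights the counts rose to 26 for any difference between the times (69.7% of all genes), 16 for the times 12 h apart together (29.8%), 10 for light minus dark (15.1%), 7 for 12pm minus 12am (3.36%), 9 for 4pm minus 4am (25.4%), 12 for the 8 o'clock set (36.9%) and 10 for the 12 o'clock set (43.3%). The 8 o'clock count was 2 with a filter at the 60th percentile and 7 without 4pm b, 4am a and 4am b. The 12 o'clock count was 1 with quantile normalization, 5 with a common median, 1 with the stricter filter and 0 without those 3 arrays or without 4pm c as well. The 4 o'clock count was 5 with a common median, 1 without the 3 arrays and 0 without the 4. Leaving out 1 array in turn gave 1 to 15 genes for any difference, 1 to 7 for the 8 o'clock set, 0 to 9 for the 12 o'clock set, 2 to 12 for the 4 o'clock set, 0 to 8 for times 12 h apart, 0 to 5 for light minus dark and 0 to 9 for 4pm minus 4am, each upper end without 4am c. Reversed values were Irf7 in the 4 o'clock set (0.075 without the 3 arrays, 0.030 without the 4) and Psmb9 in 4pm minus 4am (-0.035 and -0.046). The cause of these changes was not tested. The counts of other pathway genes without the 3 arrays were an alternative chosen after seeing the data. With the letters a, b and c as a replicate block, any difference passed for 3 genes in place of 4, and the other counts did not move. Little sign of pairing by letter was seen: 6 of 45 same-letter pairs had deviations correlated above 0.1 (r from -0.49 to 0.295). Of the 18 arrays, 4 correlated best with their own letter. Such correlations cannot exclude a pairing, and the labels do not say what the letters stand for.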
